A study of Mus musculus with 8 samples.

Results

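The transcription factors that mark the germ layers and the trophectoderm were followed in mouse embryonic stem cells in which the RNA helicase eIF4A3 was targeted. The set was a list of 45 genes, of which 15 listed neural and ectoderm factors, 14 primitive streak and mesoderm factors, 6 endoderm factors and 9 trophectoderm factors were found by gene ID among the 37310 genes counted, 44 in all. Sox1 was not analysed here. Of the 44 genes, 31 had enough counts to be tested in the fit over the 6 J1 libraries.

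Embryonic stem cells come from the inner cell mass and self-renew in the presence of leukemia inhibitory factor. Lineage transcription factors are DNA-binding proteins that switch on the genes of one germ layer (ectoderm, mesoderm or endoderm) or of the trophectoderm, the outer layer that builds the placenta. In self-renewing stem cells most of them are silent or low, while a few, among them Foxd3, Zic2, Otx2, Sox3 and Sox11, are also used in the stem cell or early epiblast state, so a neural or ectodermal label does not make them specific to that lineage. Gata4, Gata6, Sox17 and Sox7 are used in primitive endoderm, the extraembryonic layer that forms beside the epiblast, as well as in later endoderm. eIF4A3 is a core protein of the exon junction complex, which is laid down on spliced messenger RNA, and Ccnb1 encodes cyclin B1, which drives entry into mitosis.

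Poly-A RNA was sequenced from 8 libraries, in 4 groups of 2. The J1 line, of strain 129S4/SvJae, was given either control constructs of both kinds (control), a construct labelled as knocking down eIF4A3 beside the control expression construct (labelled knockdown), or that knockdown together with overexpressed Ccnb1 (with Ccnb1). Cells of the CCE line, of strain 129/Sv, were labelled as eIF4A3 knockdown, and no control of CCE was analysed here. Per the labels, cells of every group grew without feeders on gelatin in serum and leukemia inhibitory factor, were transfected with a lipid reagent and drug-selected, were then infected with lentivirus, kept in 1 µg/mL puromycin over 2.5 days, and harvested at day 4.5 from infection. The labels do not give the knockdown sequence, the promoter of the Ccnb1 construct or whether lines are clones, and they do not say that the libraries of a group came from separate cultures, so p-values measure only the spread between libraries, which may be technical. In bulk RNA, fewer cells of a type and less RNA per cell cannot be told apart.

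Gene counts came to 3596615 to 8340023 per J1 library and to 23965806 and 25573379 in the CCE libraries. Levels are gene counts scaled by the library's total gene count (CPM), so that 3 counts equal 0.360 to 0.834 CPM in a J1 library and 0.117 and 0.125 CPM in a CCE library. The libraries labelled knockdown stood apart. The variance between the libraries of a group, relative to counting noise, was 22.0 in that group, 3.41 in the control and 1.88 in the group with Ccnb1, and dividing the counts of the libraries labelled knockdown by 22.0 gives 199930 and 163495 counts, the depth at which counting noise alone would scatter as much. Counting noise and a difference between the cells of those libraries cannot be told apart with this division. Reads that did not align made up 40.8% and 45.2% there, against 15.7% to 15.9% in the other J1 libraries. The targeted gene, Eif4a3, stood at 73.5 and 83.7 CPM in the control, 75.7 and 37.5 CPM in the libraries labelled knockdown, 47.3 and 53.5 CPM with Ccnb1, and 48.8 and 53.9 CPM in CCE. The first library labelled knockdown was thus at the control level for the RNA of its target. Ccnb1 RNA stood at 135 and 129 CPM in the control and 101 and 126 CPM in the libraries labelled knockdown. It stood at 136 and 131 CPM with Ccnb1, and at 247 and 261 CPM in CCE. The group with Ccnb1 was thus at the control level for Ccnb1 RNA, and its name follows the labels. The 12 stem cell markers summed to 8382 and 8377 CPM in the control and to 4594 and 4424 CPM in the libraries labelled knockdown, and all groups expressed them. Of the fibroblast markers, Dcn, Postn, Col3a1 and Prrx1 were at 0 counts in every J1 library, while Fn1, Vim, Thy1, Pdgfrb, Twist1 and Col1a1 were expressed and tested. Col1a1, a chain of type I collagen, rose from 1.39 and 1.08 CPM in the control to 14.3 and 17.2 CPM in the libraries labelled knockdown (log2 fold change 3.50, SE 0.61, edgeR adjusted p = 0.0121), and was the fibroblast marker called there among 6 tested. It stood at 3.07 and 2.72 CPM with Ccnb1. Its part in the results on the lineage factors was not tested.

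**Figure D1:**
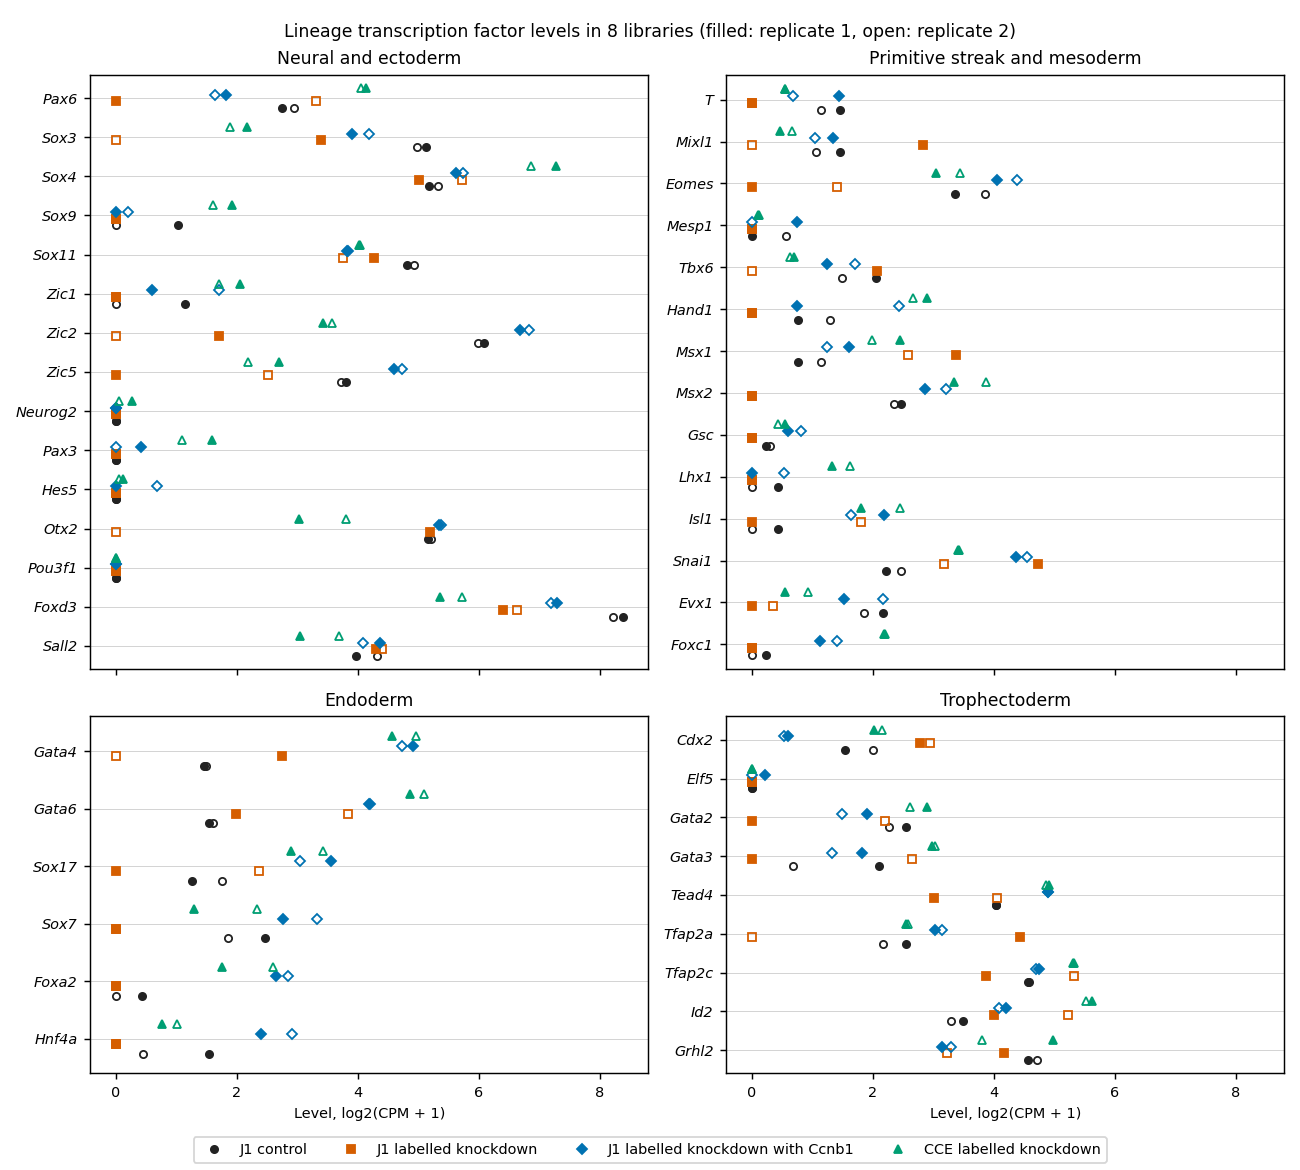
Level of each of the 44 genes, in log2(CPM + 1), in every library, by lineage (colours and shapes: group; filled: replicate 1; open: replicate 2). Foxd3 is the highest member in the control libraries, and orange squares at 0 show how many members had no count in a library labelled knockdown.

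In the J1 control the lineage factors ranged from 0 to 333 CPM. Foxd3, a forkhead repressor of the stem cell, epiblast and neural crest states, was far above the rest at 333 and 298 CPM. On a scale that corrects for transcript length (mean CPM per kilobase of transcript), Foxd3 came first at 136, followed by Zic2 at 26.6, Sox3 at 15.6, Otx2 at 13.6, Sox4 at 7.75, Tfap2c at 7.64 and Tead4 at 5.01. Neural and ectoderm members together summed to 567 and 533 CPM in the control, trophectoderm members to 86.0 and 83.1 CPM, streak and mesoderm members to 30.0 and 32.3 CPM, and endoderm members to 11.8 and 9.23 CPM. Foxd3 alone made up 333 of the 567 CPM of the neural sum in the first control library.

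Many members stood below 3 counts in a library. In the control these were 11 and 12 of the 44 genes. Below 3 counts in both control libraries were Neurog2, Pax3, Hes5, Pou3f1, Gsc, Lhx1, Isl1, Foxc1, Foxa2 and Elf5, while Mesp1 was below it in the first library and Sox9 and Zic1 in the second. With Ccnb1 there were 7 and 6, namely Sox9, Neurog2, Pax3, Pou3f1 and Elf5 in both, Hes5 and Lhx1 in the first and Mesp1 in the second. In the libraries labelled knockdown there were 25 and 25. Below 3 counts in both of them were Sox9, Zic1, Neurog2, Pax3, Hes5, Pou3f1, T, Mesp1, Hand1, Msx2, Gsc, Lhx1, Evx1, Foxc1, Sox7, Foxa2, Hnf4a and Elf5. Pax6, Zic5, Eomes, Isl1, Sox17, Gata2 and Gata3 were below it in the first library labelled knockdown, and Sox3, Zic2, Otx2, Mixl1, Tbx6, Gata4 and Tfap2a in the second. In the deeper CCE libraries there were 4 and 5, Hes5, Pou3f1, Mesp1 and Elf5 in both and Neurog2 in the second. Pou3f1 had no count in any of the 8 libraries, and Elf5 had 1 count in all.

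The 13 members with too few counts for the 6-library fit were Sox9, Zic1, Neurog2, Pax3, Hes5, Pou3f1, T, Mesp1, Hand1, Gsc, Lhx1, Foxc1 and Elf5. All 13 were at 0 in both libraries labelled knockdown. T, the Brachyury factor of the primitive streak, stood at 1.74 and 1.20 CPM in the control and 1.70 and 0.604 CPM with Ccnb1, and alone of the 13 entered the fit of only those 2 groups (log2 fold change -0.47, edgeR adjusted p = 0.635). Hand1, a factor of extraembryonic and cardiac mesoderm and of trophoblast giant cells, reached 6.43 and 5.32 CPM in CCE, and Foxc1, a mesodermal forkhead factor, 3.55 and 3.6 CPM. The highest of the other 11 was Zic1, at 3.17 CPM in a CCE library.

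Zeros among the libraries labelled knockdown fell on members that the other libraries expressed. Of the 31 tested members, 15 had 1 of the pair of libraries labelled knockdown at 0 counts and 4 had both, while 2 had a 0 in any of the other 4 J1 libraries. Among genes with a mean level of 1 to 50 CPM in those 4 libraries, 62.1% of 29 members had a 0 in a library labelled knockdown, against 29.5% of 9270 tested genes, whose median level of 12.4 CPM was above the members' 5.84 CPM. Otx2, a head and epiblast homeobox factor, shows the pattern at a well-expressed gene. It had 35.7 and 0 CPM in the libraries labelled knockdown, against 34.8 and 35.9 CPM in the control and 39.7 and 40.3 CPM with Ccnb1. Tfap2a, an AP-2 factor of trophoblast and neural crest, had 20.7 and 0 CPM there, and Gata4 5.68 and 0 CPM.

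**Figure D2:**
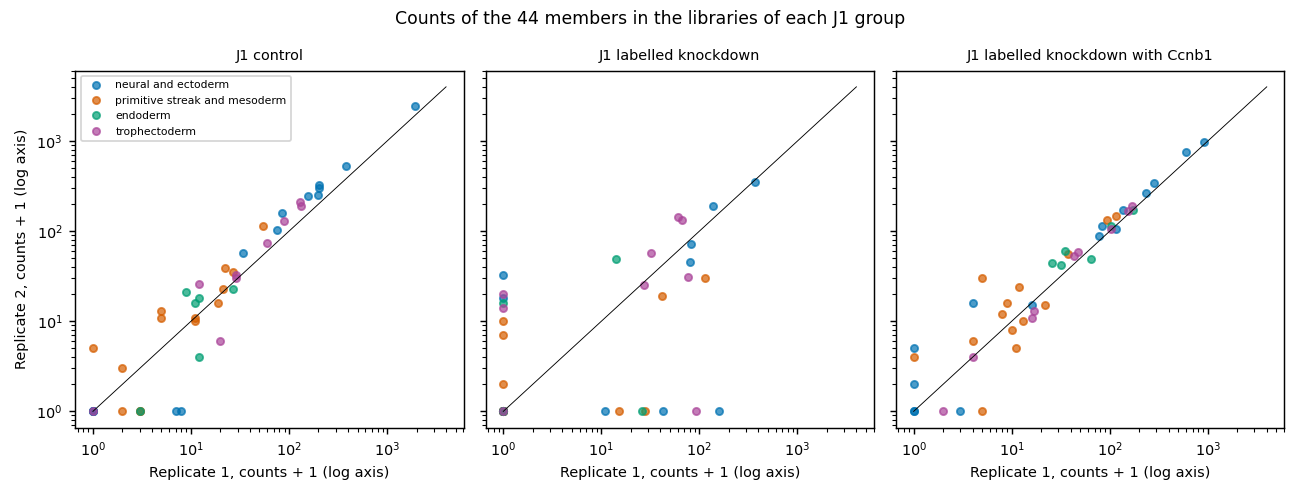
Counts + 1 of the 44 members in replicate 1 (x, log axis) against replicate 2 (y, log axis) for each J1 group, coloured by lineage, with a line of equal counts. Members above a few counts lie near a straight line for the control and for the libraries with Ccnb1, while in the group labelled knockdown many points lie on an axis, with 0 counts in 1 library.

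The first comparison asked which lineage factors differed between the libraries labelled knockdown and the control. By edgeR's quasi-likelihood test over the 6 J1 libraries, with Benjamini-Hochberg adjustment over 14462 genes and calls at 0.05, 4 of 31 members fell and 0 rose. Of all tested genes 17.9% fell and 11.0% rose, and 28.9% changed in either direction, so the members' share of falls was not above the background. At an unadjusted p under 0.05, 8 members were lower and 3 higher, beside 3496 and 2426 of the 14462 genes. DESeq2 called 9 members lower and 4 higher, beside 3234 and 2596 genes. The median log2 fold change was -0.64 over the 31 members and -0.09 over all tested genes. The number that fell moved with the library left out, for the members and for all genes alike.

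Foxd3 gave the firmest difference. It fell from 333 and 298 CPM in the control to 83.9 and 97.6 CPM in the libraries labelled knockdown, a log2 fold change of -1.95 (SE 0.12, edgeR adjusted p = 0.000561). The libraries of each group lie close together and the groups do not overlap. It was called in the same direction under all 14 other settings tried. The 250 bases before its start, at chr4:99656049-99656298 on the plus strand (RefSeq, GRCm38.p6), are shown with those of 3 other members that passed the test in this or the next comparison. Msx2 lies on the minus strand with chr13:53472781-53473030, Foxa2 on the minus strand with chr2:148046970-148047219, and Hnf4a on the plus strand with chr2:163506607-163506856. Each is read 5′ to 3′ on the gene's strand, and capitals mark CG pairs, the site of most DNA methylation in mammals.
Foxd3: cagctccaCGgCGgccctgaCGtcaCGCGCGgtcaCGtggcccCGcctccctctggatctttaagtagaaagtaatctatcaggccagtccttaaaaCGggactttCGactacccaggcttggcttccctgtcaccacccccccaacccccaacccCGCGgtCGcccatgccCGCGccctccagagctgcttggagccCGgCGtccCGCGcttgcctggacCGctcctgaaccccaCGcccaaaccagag
Msx2: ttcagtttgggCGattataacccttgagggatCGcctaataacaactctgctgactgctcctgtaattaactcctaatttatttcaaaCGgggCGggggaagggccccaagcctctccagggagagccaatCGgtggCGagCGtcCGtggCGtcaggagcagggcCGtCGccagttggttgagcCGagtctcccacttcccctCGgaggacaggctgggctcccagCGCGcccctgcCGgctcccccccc
Foxa2: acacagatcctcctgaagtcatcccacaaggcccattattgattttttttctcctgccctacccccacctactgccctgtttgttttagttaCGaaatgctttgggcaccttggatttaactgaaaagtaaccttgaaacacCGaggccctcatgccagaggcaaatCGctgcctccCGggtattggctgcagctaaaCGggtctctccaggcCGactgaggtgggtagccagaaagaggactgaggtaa
Hnf4a: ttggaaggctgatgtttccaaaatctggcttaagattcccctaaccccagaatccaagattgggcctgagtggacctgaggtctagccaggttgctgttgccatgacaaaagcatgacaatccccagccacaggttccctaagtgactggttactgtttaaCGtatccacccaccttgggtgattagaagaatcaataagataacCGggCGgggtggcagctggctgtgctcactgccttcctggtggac

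Foxd3 holds 21 CG pairs in this stretch and Msx2 16, while Foxa2 holds 6 and Hnf4a 3. The promoter table matched 31 of the 45 listed genes. A CG-dense stretch, with an observed over expected CG ratio of at least 0.6 and a GC content of at least 50%, stood before 19 of the 31 (61.3%), against 31.4% of 27025 genes, with a median of 15 against 6 CG pairs. Neither of the endoderm factors in the table, Foxa2 and Hnf4a, had such a stretch. These are features of the reference sequence. Methylation was not measured in these libraries.

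Zic2, a zinc finger factor of the epiblast and the neural plate, fell further. It stood at 67.1 and 62.6 CPM in the control and at 2.27 and 0 CPM in the libraries labelled knockdown, which are 10 and 0 counts (edgeR adjusted p = 0.00298). The fitted log2 fold change of -5.85 is no measured size, since it was -11.65 without the first library labelled knockdown and -5.00 without the second. Without either control library its call was lost, with a highest adjusted p of 0.052 in edgeR. Its relative Zic5, which lies beside it in the genome, read 13.1 and 12.2 CPM in the control and 0 and 4.73 CPM in the libraries labelled knockdown, and did not pass. Zic5 is uncertain, since Gm12241 matches its transcript at 98.9% over 726 bases and reads can be split between them.

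Msx2, a homeobox factor of mesoderm induced by BMP signals, stood at 4.53 and 4.08 CPM in the control and at 0 in both libraries labelled knockdown (adjusted p = 0.0135 in edgeR). Sox7, an SRY-related factor of primitive endoderm and endothelium, stood at 4.53 and 2.64 CPM and likewise at 0 (adjusted p = 0.0190 in edgeR). No fold is given for either, because 3 counts after division by the spread correspond to 8.25 CPM over the group labelled knockdown, above their control levels. Of 13 other settings, 6 lost the call of Msx2 and 7 that of Sox7. Both calls were lost in the fit of only the 2 groups compared. That 4-library fit called Foxd3 and Zic2 and no other member, where 7.66% of genes fell and 5.56% rose, 13.2% in all.

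The remaining neural members were less clear. Sox3, a SoxB1 factor of neural progenitors, stood at 34.0 and 30.5 CPM in the control and 9.55 and 0 CPM in the libraries labelled knockdown. Sox11, a SoxC factor of early neurons, stood at 27.2 and 29.6 CPM against 18.2 and 12.5 CPM. Neither passed the test. Sox4, the other SoxC factor, and Sall2, a zinc finger factor, overlapped between the groups, with 35.4 and 39.0 against 31.1 and 52.0 CPM for Sox4 and 14.6 and 18.9 against 18.6 and 20.0 CPM for Sall2. Pax6, an eye and forebrain factor, split into 0 and 8.90 CPM around control values of 5.75 and 6.71 CPM.

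No streak or trophectoderm member rose in the libraries labelled knockdown by edgeR. At an unadjusted p under 0.05, 2 streak members and 1 trophectoderm member were higher there, beside 2426 of 14462 genes. DESeq2 called 2 and 1 higher, beside 2596 genes. Snai1, a repressor that drives cells out of an epithelium, read 3.66 and 4.56 CPM in the control and 25.7 and 8.06 CPM in the libraries labelled knockdown. Msx1, a homeobox relative of Msx2, read 0.697 and 1.20 CPM against 9.32 and 5.0 CPM. Cdx2, the caudal factor that sets trophectoderm fate, read 1.92 and 3.0 CPM against 5.91 and 6.67 CPM, and Id2, an inhibitor of helix-loop-helix factors, 10.3 and 8.75 CPM against 15.0 and 36.4 CPM. None of these 4 passed the test. For Tfap2a, Gata4 and Tfap2c the direction depended on the library. Each was called in one direction without the first library labelled knockdown and in the opposite direction without the second. Tfap2c read 13.6 and 39.2 CPM in the libraries labelled knockdown. Control values of Tfap2a were 4.88 and 3.48 CPM.

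The members not yet given for the libraries labelled knockdown were mostly split between them. Among streak factors, Mixl1 had 6.14 and 0 CPM, Tbx6 3.18 and 0 CPM, and Isl1 0 and 2.5 CPM. Evx1 had 0 and 0.278 CPM, against 3.48 and 2.64 CPM in the control. Sox17 had 0 and 4.17 CPM, Gata2 0 and 3.61 CPM, and Gata3 0 and 5.28 CPM. Grhl2 had 17.1 and 8.34 CPM, both below the control.

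**Figure D3:**
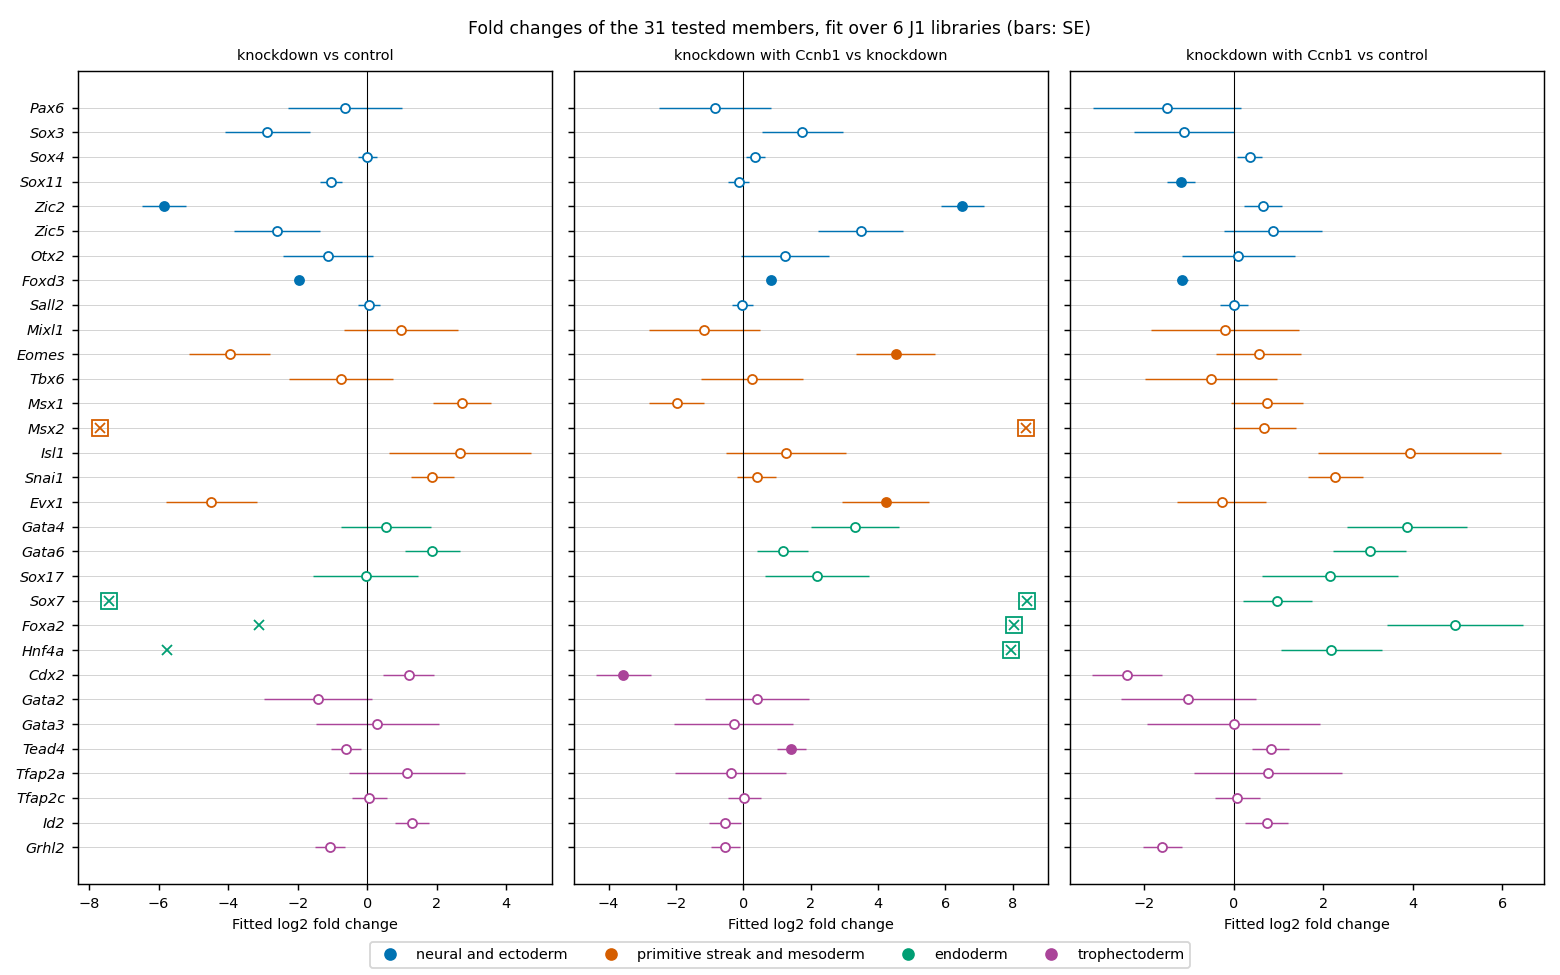
Fitted log2 fold change of the 31 tested members in each comparison (x axis; bars: SE; colour: lineage; filled: adjusted p under 0.05). Crosses mark members at 0 counts in both libraries labelled knockdown, whose fitted values are not fold changes to be read, with a square where the test was passed; calls number 4, 10 and 2 from left to right.

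The second comparison asked which factors differed between the group labelled as overexpressing Ccnb1 on top of the knockdown and the libraries labelled knockdown. It uses the same libraries labelled knockdown as the first, so the pair is not independent. By edgeR 9 of 31 members rose and 1 fell, beside 22.8% and 16.0% of all genes tested. Counted in either direction, 10 of 31 members were called against 38.8% of all genes. The median log2 fold change was 0.81 over the members and 0.14 over all genes. Without either library with Ccnb1, 2 members rose, without the first or second control library 3 and 4, and without the first or second library labelled knockdown 17 and 21. None of these fits that left out a control library or a library with Ccnb1 called a member lower, and 4 and 5 were lower without the first or second library labelled knockdown.

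Zic2 rose to 102 and 113 CPM with Ccnb1 (edgeR adjusted p = 0.00138). Its fitted log2 fold change of 6.50 again rests on 10 and 0 counts, and was 12.33 without the first library labelled knockdown and 5.69 without the second. Foxd3 rose to 155 and 146 CPM, a log2 fold change of 0.81 (SE 0.12, edgeR adjusted p = 0.00451). These were the 2 calls made under all 14 other settings. Zic2 with Ccnb1 stood above both control libraries, whereas Foxd3 stood between the libraries labelled knockdown and the control.

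Msx2 (6.30 and 8.31 CPM with Ccnb1, edgeR adjusted p = 0.00773) and Sox7 (5.79 and 9.06 CPM, 0.00996) passed against a group in which all libraries were at 0. Hnf4a, a nuclear receptor of visceral endoderm and liver, stood at 4.26 and 6.49 CPM with Ccnb1. Foxa2, a pioneer factor of definitive endoderm and the node, stood at 5.28 and 6.19 CPM with Ccnb1. Both likewise passed against 0. Foxa2 met the low-count filter, a minimum of 1.72 CPM in 2 libraries, only through the libraries with Ccnb1. Hnf4a reached that minimum in both libraries with Ccnb1 and in 1 control library, so it would not have been tested without the libraries with Ccnb1. Neither call is evidence of a difference. No fold is given for these 4, since their mean levels with Ccnb1 lie under the 8.25 CPM given above for the libraries labelled knockdown. Eomes, a T-box factor of streak and trophectoderm, rose from 0 and 1.67 CPM, which are 0 and 6 counts, to 15.7 and 19.8 CPM (edgeR adjusted p = 0.0301). Its fitted log2 fold change was 4.52, and 3.52 or 9.79 without the first or the second library labelled knockdown, and 5 of 14 other settings lost the call. Evx1, a homeobox factor of the posterior streak, had 34 counts in the group with Ccnb1 (1.87 and 3.47 CPM) and 1 in the group labelled knockdown (edgeR adjusted p = 0.0489), with no fold given for the same reason. Evx1 overlaps the antisense gene Evx1os, whose counts go the other way (45 and 21 in the libraries labelled knockdown, 4 and 3 with Ccnb1), and the strand handling of the counts is not given in the sources used here. Tead4, the TEA domain partner of YAP in trophectoderm, rose from 7.05 and 15.6 CPM to 28.8 and 28.7 CPM, a log2 fold change of 1.43 (SE 0.43, edgeR adjusted p = 0.0472). Both Evx1 and Tead4 lie just inside the threshold, and 7 of 11 other settings lost the call of Evx1 and 8 of 14 that of Tead4.

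Cdx2 was the member that fell. Its level went from 5.91 and 6.67 CPM in the libraries labelled knockdown to 0.511 and 0.453 CPM with Ccnb1, which are 3 counts in each library (edgeR adjusted p = 0.0202). The fitted log2 fold change of -3.57 (SE 0.82) is no measured size, since the values labelled knockdown lie under the 8.25 CPM given above. The call was lost in 6 of 13 other settings, among them counts divided by their spread. The values with Ccnb1 also lie below the control values of 1.92 and 3.0 CPM.

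The third comparison set the group with Ccnb1 against the control, and it shares libraries with each of the others. In the fit over 6 J1 libraries 0 members rose and 2 fell, beside 9.35% and 10.5% of all genes, or 19.8% in either direction. At an unadjusted p under 0.05, 4 members were higher and 4 lower, beside 2426 and 2468 of 14462 genes. DESeq2 called 4 members higher and 3 lower, beside 2364 and 2292 genes. Foxd3 fell from 333 and 298 to 155 and 146 CPM, a log2 fold change of -1.14 (SE 0.11, edgeR adjusted p = 0.00275). Sox11 fell from 27.2 and 29.6 to 13.1 and 13.3 CPM, a log2 fold change of -1.18 (SE 0.31, edgeR adjusted p = 0.0487). Both calls were lost when a control library or a library with Ccnb1 was left out.

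That fit takes its estimate of spread partly from the libraries labelled knockdown, which are not in this comparison. A second fit held only the 4 libraries compared. It called 12 of 30 members higher and 6 lower, where 31.4% and 30.7% of 13945 genes were called. The 18 members called in either direction stand beside 62.1% of all genes, so the members as a whole did not differ more often than the background. The lineages differed in their counts. Among endoderm factors 6 of 6 were higher and 0 lower, of which Gata4, Gata6 and Sox7 met the minimum of 1.6 CPM in both libraries of both groups, Sox17 and Hnf4a in 1 control library and Foxa2 in none, so that the count itself is a description. The other counts were, among neural members 2 of 9 higher and 4 lower, among streak members 2 of 7 higher and 0 lower, and among trophectoderm members 2 of 8 higher and 2 lower. In the 6-library fit 0 of the 6 endoderm factors passed, and 3 were higher at an unadjusted p under 0.05, beside 2426 of 14462 genes. DESeq2 called 3 higher, beside 2364 genes. The median log2 fold change of the 6 was 2.61 in the 6-library edgeR fit, against 0.07 over all genes. Foxa2 is in both counts of 3. Foxa2 and Hnf4a would not have been tested in the 6-library fit without the libraries with Ccnb1. These counts and the median are therefore a description too. Over the fits that left out 1 library, the log2 fold change ran from 3.79 to 3.97 for Gata4, from 3.01 to 3.11 for Gata6 and from 0.64 to 1.43 for Sox7.

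**Figure D4:**
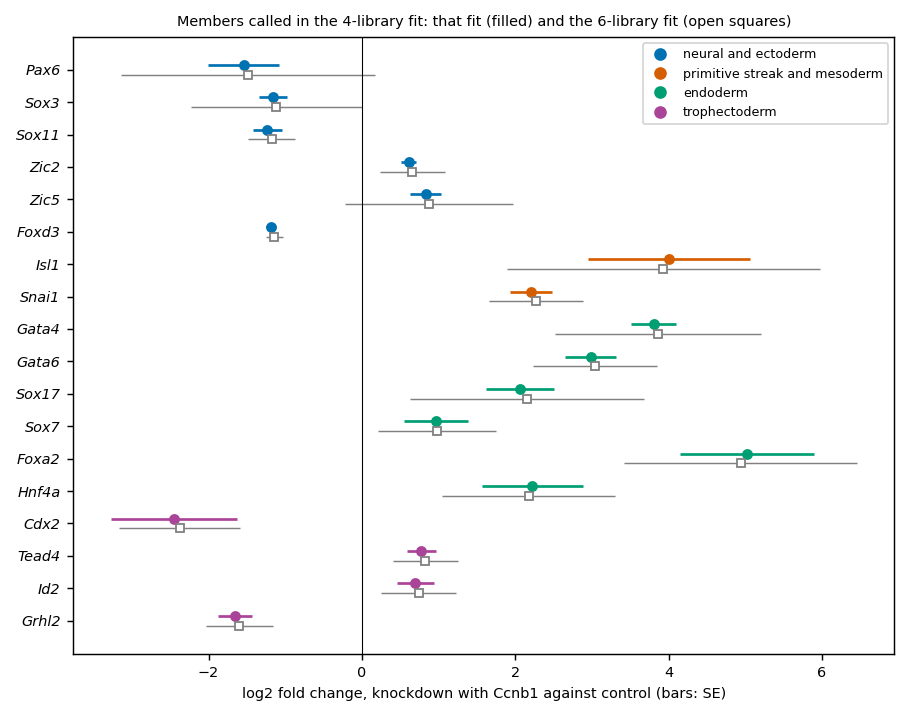
log2 fold change, libraries with Ccnb1 against control, of the 18 members called in the 4-library fit (filled circles coloured by lineage; bars: SE) beside the 6-library fit (open squares). The fold changes nearly coincide, with Gata4 at 3.81 and 3.86, while the bars of the 6-library fit are wider.

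Gata4 and Gata6, the zinc finger factors that define primitive endoderm, had the clearest values. Gata4 stood at 1.74 and 1.80 CPM in the control and 29.1 and 25.7 CPM with Ccnb1, a log2 fold change of 3.81 (SE 0.29, adjusted p = 1.93e-12 in the 4-library edgeR fit). In the 6-library fit its log2 fold change was 3.86 with an edgeR adjusted p of 0.103. Gata6 stood at 1.92 and 2.04 CPM in the control and at 17.4 and 17.2 CPM with Ccnb1, a log2 fold change of 2.98 (SE 0.33, 4-library edgeR adjusted p = 4.82e-09, against 0.0524 in the 6-library fit). The libraries labelled knockdown read 5.68 and 0 CPM for Gata4 and 2.96 and 13.3 CPM for Gata6, which spread too widely to place that group between the others.

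Sox17, an SRY-related endoderm factor, stood at 1.39 and 2.40 CPM in the control and at 10.7 and 7.25 CPM with Ccnb1 (fitted log2 fold change 2.06 over the 4 libraries). It reached the minimum of 1.6 CPM in only 1 control library, and so is given with no test. Foxa2 had 2 counts in the control and 72 with Ccnb1, a ratio of 40.6 with an exact 95% counting interval of 10.8 to 341, given with no test because it met the filter only through the group in which it is high. Hnf4a went from 1.92 and 0.360 CPM to 4.26 and 6.49 CPM (fitted log2 fold change 2.22). It too reached the 1.6 CPM minimum in only 1 control library, and is given with no test. Sox7 changed least of the 6, from 4.53 and 2.64 CPM to 5.79 and 9.06 CPM (log2 fold change 0.96, adjusted p = 0.0482 in the 4-library edgeR fit). Intervals of this kind cover counting error only.

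The endoderm effector genes, which encode basement membrane proteins, receptors and secreted proteins of that lineage, were counted beside their factors. Of 14 such genes tested, 6 rose in the 6-library fit and 0 fell, beside 9.35% and 10.5% of all genes, and 11 rose and 0 fell in the 4-library fit, beside 31.4% and 30.7%. Among the 11, control levels were 0.697 and 1.08 CPM for Cubn, 0.348 and 2.52 CPM for Pdgfra, 1.74 and 1.44 CPM for Foxq1, and 1.57 and 2.88 CPM for Dab2. These genes missed the minimum of 1.6 CPM in a control library and would not have been tested there without the libraries with Ccnb1. The count of 11 is therefore a description. Col4a2, a chain of type IV collagen, had 22.6 and 17.0 CPM in the control and 157 and 164 CPM with Ccnb1, a log2 fold change of 2.95 (SE 0.18, 6-library edgeR adjusted p = 0.000838). Serpinh1, a collagen chaperone, rose by 1.14 on the log2 scale (edgeR adjusted p = 0.00232), and Dab2, an endocytic adaptor of primitive endoderm, by 3.14 (edgeR adjusted p = 0.0157). Dab2 met the 1.72 CPM minimum of the 6-library fit in the libraries labelled knockdown too, at 16.4 and 8.62 CPM. In the libraries labelled knockdown, whose endoderm factors summed to 8.64 and 17.5 CPM against 11.8 and 9.23 CPM in the control, 5 of the 14 effector genes rose against the control and 1 fell, beside 11.0% and 17.9% of all genes. The summed fibroblast markers were 835 and 767 CPM in the control and 920 and 960 CPM with Ccnb1, with 0 of 6 tested genes called by edgeR, 0 at an unadjusted p under 0.05, and 3 called higher in the 4-library fit. Their part in the result was not tested.

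Among neural and ectoderm members, the 4-library fit separated those that rose with Ccnb1 from those that fell. Zic2 rose by 0.61 on the log2 scale (adjusted p = 3.96e-06 in the 4-library edgeR fit) and Zic5, at 23.2 and 25.7 CPM, by 0.83 (0.000812). Foxd3 fell by 1.19 on the log2 scale and Sox11 by 1.23. Sox3, at 14.0 and 17.2 CPM with Ccnb1, fell by 1.16, and Pax6, at 2.55 and 2.11 CPM, fell by 1.55. Otx2, Sox4 and Sall2 did not pass, with Ccnb1 values of 48.0 and 52.1 CPM for Sox4 and 19.8 and 16.0 CPM for Sall2.

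Among streak and mesoderm members, Snai1 rose from 3.66 and 4.56 to 19.6 and 22.4 CPM, a log2 fold change of 2.20 (4-library edgeR adjusted p = 3.46e-08). Isl1, a LIM homeobox factor of cardiac progenitors, had 2 counts in the control and 35 with Ccnb1 (3.58 and 2.11 CPM), a ratio of 19.7 with an exact 95% counting interval of 5.07 to 169, likewise given with no test. Mixl1, a homeobox factor of mesendoderm, read 1.74 and 1.08 CPM against 1.53 and 1.06 CPM. Msx1 read 2.04 and 1.36 CPM with Ccnb1. Tbx6, a T-box factor of presomitic mesoderm, read 3.14 and 1.80 CPM against 1.36 and 2.27 CPM. Eomes read 9.23 and 13.5 CPM against 15.7 and 19.8 CPM, and neither Tbx6 nor Eomes was called. Mixl1 and Msx1 did not enter the 4-library fit and were not called in the 6-library fit.

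Among trophectoderm members, Tead4 rose from 15.3 and 15.5 to 28.8 and 28.7 CPM (log2 fold change 0.77, 4-library edgeR adjusted p = 0.00063), and Id2 to 17.4 and 16.0 CPM (log2 fold change 0.69, adjusted p = 0.0143). Grhl2, a grainyhead factor that keeps epithelia intact, fell from 22.6 and 25.2 to 7.83 and 8.76 CPM, a log2 fold change of -1.65 (4-library edgeR adjusted p = 1.80e-07). Cdx2, at 0.511 and 0.453 CPM with Ccnb1, met the filter only through the control, and its difference is given with no test. The AP-2 factor Tfap2c, which is expressed in stem cells as well as trophectoderm, read 22.8 and 22.8 CPM in the control and 25.9 and 25.1 CPM with Ccnb1. Gata2 and Gata3, zinc finger factors of trophoblast, read 4.88 and 3.84 CPM and 3.31 and 0.60 CPM in the control, and 2.72 and 1.81 CPM and 2.55 and 1.51 CPM with Ccnb1. Tfap2a read 7.15 and 7.85 CPM with Ccnb1. Tfap2c, Tfap2a, Gata2 and Gata3 were not called.

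**Figure D5:**
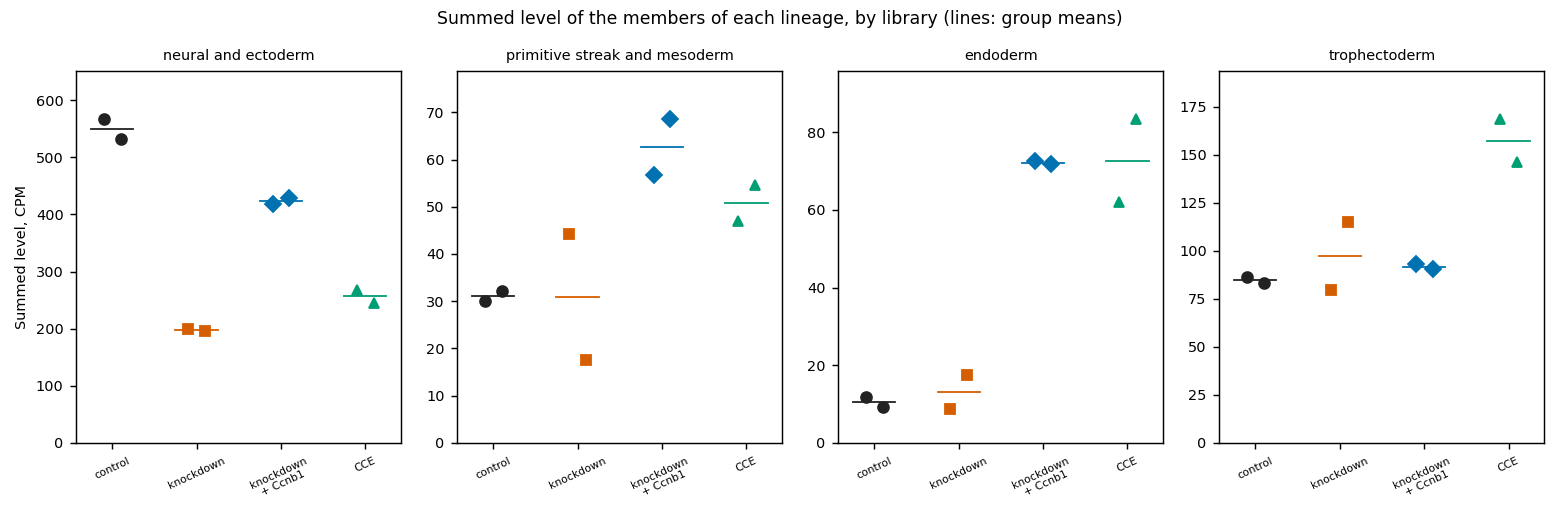
Summed level in CPM (y axis, from 0) of the members of each lineage in every library, by group, with lines at the group means. The endoderm sum is 9.23 and 11.8 CPM in the control and 71.9 and 72.5 CPM with Ccnb1, and the neural sum is lowest in the libraries labelled knockdown.

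The sums by lineage give the same values in a compact form, with no test. The neural sum was 199 and 196 CPM in the libraries labelled knockdown and 418 and 428 CPM with Ccnb1, both below the control. Foxd3 alone gave 333 and 298 CPM of the control sum and 155 and 146 CPM of the sum with Ccnb1. The lower sum with Ccnb1 therefore does not describe the other neural members. The mesoderm sum was 44.3 and 17.5 CPM and then 56.7 and 68.6 CPM, and the trophectoderm sum was 79.4 and 115 CPM and then 93.0 and 90.2 CPM. The endoderm sum was 8.64 and 17.5 CPM and then 72.5 and 71.9 CPM, against 11.8 and 9.23 CPM in the control.

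Other genes of the same pathways were counted in the 6-library edgeR fit. Of 10 neural genes that are not transcription factors of the list, 2 rose and 3 fell in the libraries labelled knockdown against control. Gbx2 fell from 451 and 404 to 66.2 and 96.5 CPM, a log2 fold change of -2.55 (SE 0.19, edgeR adjusted p = 0.000892), and with Ccnb1 it stood at 143 and 141 CPM. Of 11 streak signalling and surface genes 1 rose and 3 fell, of 9 trophoblast genes 1 rose and 2 fell, and of 10 BMP and TGF-beta response genes 0 rose, also at an unadjusted p under 0.05, and 3 fell, where 11.0% of all genes rose and 17.9% fell. With Ccnb1 against the libraries labelled knockdown, 4 of 10 neural, 2 of 11 streak, 2 of 9 trophoblast and 5 of 10 response genes rose and 0 of each fell, also at an unadjusted p under 0.05, where 22.8% of all genes rose and 16.0% fell. Of the 14 endoderm effector genes 4 rose and 1, Sparc, fell in that comparison. Against the control, 0 neural genes rose and 1 fell, 2 streak genes rose and 1 fell, 1 trophoblast gene rose and 1 fell, and 0 response genes passed in either direction, where 9.35% of all genes rose and 10.5% fell. The unadjusted test put 3 neural genes higher and 0 response genes higher or lower in that comparison, beside 2426 of 14462 genes higher and 2468 lower.

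Exon number was compared because the exon junction complex is loaded on spliced RNA. The tested members with 1 exon were Sox3, Sox4, Sox11 and Foxd3. Their median log2 fold change in the libraries labelled knockdown against control was -1.50, against -0.60 for the 27 members with 2 or more exons. Over 344 tested protein-coding genes with 1 exon the median was -0.15, and over 12324 with more it was -0.06. With Ccnb1 against control the medians were -1.13 for those 4 members and 0.69 for the 27, while genes with 1 exon had a median of 0.38. With 4 members of which 3 are Sox genes, the values describe these genes only.

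The CCE libraries had no control, and their levels are given as a description. Counting differed between the lines, so no level is compared across lines by a test. Reads outside any gene took 48.5% and 49.5% of all reads listed in CCE and 11.9% to 13.9% in J1. Those shares have unlike bases, since unaligned and low-quality reads were each 0% in CCE. In J1, unaligned reads took 15.7% to 45.2% and low-quality reads 20.65% to 33.7%. In CCE the highest members were Sox4 at 154 and 115 CPM, Foxd3 at 39.8 and 52.1 CPM, Id2 at 48.4 and 45.1 CPM and Tfap2c at 39.1 and 38.9 CPM. Gata6 stood at 28.2 and 33.2 CPM and Gata4 at 22.7 and 30.3 CPM, with Sox17 at 6.47 and 9.78 CPM, Foxa2 at 2.38 and 5.08 CPM, Sox7 at 1.46 and 4.03 CPM and Hnf4a at 0.709 and 1.02 CPM. Zic2 stood at 9.81 and 10.9 CPM, Otx2 at 7.14 and 13.0 CPM, Sox3 at 3.50 and 2.70 CPM and Pax6 at 16.6 and 15.7 CPM. Sox11 read 15.1 and 15.4 CPM, Sall2 7.3 and 11.9 CPM, and Zic5 5.47 and 3.56 CPM.

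Streak factors in CCE were low to moderate. Msx2 stood at 9.14 and 13.6 CPM, Snai1 at 9.64 and 9.78 CPM, Eomes at 7.3 and 9.89 CPM, Msx1 at 4.46 and 2.97 CPM and Isl1 at 2.5 and 4.46 CPM, while Evx1, Mixl1 and Tbx6 ranged from 0.376 to 0.899 CPM. Of the trophectoderm factors, Tead4 stood at 29.1 and 28.2 CPM, Grhl2 at 30.5 and 12.9 CPM, Gata3 at 6.88 and 7.19 CPM, Gata2 at 6.47 and 5.16 CPM, Tfap2a at 4.84 and 4.97 CPM and Cdx2 at 3.05 and 3.44 CPM. Among these, Grhl2 had the widest gap between libraries. Lineage sums in CCE were 267 and 245 CPM for neural, 47.0 and 54.6 CPM for streak and mesoderm, 62.0 and 83.4 CPM for endoderm, and 168 and 146 CPM for trophectoderm members. The line, the absent control and the counting cannot be told apart in these levels.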

How the data were processed

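For each of 8 poly-A RNA-seq libraries the authors deposited a table of raw counts by Ensembl gene. Build mm9 and the tools HTSeq 0.11.2, edgeR 3.26.8, Bowtie2 2.3.4.3 and SAMtools 1.9 are listed, per the submitters' processing notes. Their roles, settings and strand handling are not given in the sources used here. Rows that name no gene entered neither library totals nor tests. Those for unaligned reads held 15.7% to 45.2% of reads in J1 and 0% in CCE. Symbols matched 32620 of 37310 IDs. Levels (CPM) were computed here from all gene counts, n = 2 libraries per group.

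The test was the two-sided quasi-likelihood F test of edgeR 4.0.16 in R 4.3.3, with TMM scaling, filterByExpr and 1 fit over the 6 J1 libraries, without a replicate block. It was adjusted by Benjamini-Hochberg over all genes tested and called at 0.05. The SE was approximated as |log2 fold change| divided by the root of the F statistic. Alternatives were DESeq2 1.42.0, other size factors, no low-count filter, a 5 CPM filter, the 2 groups alone, a replicate block, a GC and length offset from GENCODE M21, counts divided by their spread over counting noise, and each library left out. The script was tested on simulated data. Similar transcripts (identity of 90% or more, 300 bases or longer) came from BLAST 2.17.0. Promoters came from RefSeq (GRCm38.p6).

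Every tested member is named, with up to 3 other genes per list by smallest adjusted p. The members and lists were chosen with earlier results of these data known.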

Additional observations from a re-analysis of the deposited data

How the results depend on the processing

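Which libraries entered a fit moved the counts of calls most, with the largest counts in fits that held fewer libraries labelled knockdown. Where the libraries were the same, the cause of a change was not tested. In the group labelled knockdown 3 counts equal 0.375 CPM, or 8.25 CPM after division by the spread between its libraries, which limits members below that level.

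For the libraries labelled knockdown against control, the 6-library edgeR fit called 1591 genes higher, 2593 lower, 0 members higher and 4 members lower. DESeq2 called 2596 genes higher, 4 members higher and 9 members lower, a 5 CPM filter, which removed Msx2 and Sox7, left 2 members lower, and the 2 groups alone gave 740 genes higher, 1020 lower and 2 members lower. Leaving out 1 library gave 222 to 4336 genes higher, 479 to 5889 lower, 0 to 4 members higher and 1 to 18 lower. For Ccnb1 against knockdown, 9 members were higher and 1 lower. The 5 CPM filter gave 3 and 0 members and 0 endoderm factors, since it removed Sox7, Foxa2, Hnf4a and Cdx2 before the test, and counts divided by their spread gave 0 members lower and 1 endoderm factor. Leaving out 1 library gave 1011 to 6578 genes higher, 661 to 4500 lower, 2 to 21 members higher, 0 to 5 lower and 0 to 6 endoderm factors higher.

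For Ccnb1 against control, the 6-library fit called 1352 genes higher and 1513 lower, with 0 members higher and 2 lower. DESeq2 gave 2364 and 2292 genes, 4 members and 3 endoderm factors higher. No filter gave 2 members higher, 1 lower and 1 endoderm factor, and the 5 CPM filter gave 2 members higher and 1 endoderm factor. The 2 groups alone gave 4373 and 4285 genes, 12 members higher, 6 lower and 6 endoderm factors. The GC and length offset gave 688 genes and 1 member higher. Counts divided by their spread gave 4460 and 3926 genes, 12 members higher, 6 lower and 5 endoderm factors. Leaving out 1 library gave 96 to 4858 genes higher, 158 to 3958 lower, 0 to 15 members higher, 0 to 6 lower and 0 to 6 endoderm factors. The high ends came without a library labelled knockdown. Tfap2a, Gata4 and Tfap2c changed direction between leaving out the first and the second library labelled knockdown, against control; no result with a call in the 6-library fit did. The summed CCE level moved from 537 to 578 CPM with TMM over 8 libraries.

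The replicate numbers did not pair the libraries: deviations of same-numbered libraries correlated at -0.0303, 0.0275 and -0.002. With the replicate block, knockdown against control gave 973 genes higher and 1658 lower, Ccnb1 against knockdown 5 members higher, 0 lower and 1 endoderm factor higher, and Ccnb1 against control 887 genes higher and 1 member lower.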
